A study of Mus musculus with 4 samples.

Results

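The genes described here are 32 genes of cholesterol and fatty acid synthesis, measured in mouse embryonic fibroblasts, which are cells grown out of embryos. They comprise the enzymes that build sterols from acetyl-CoA, the proteins that switch those enzymes on and off, carriers that move sterol, and the enzymes that make and desaturate fatty acids. The members were taken by name, with no threshold on measured values, and each was represented by the brightest of its probe sets, a probe set being a group of probes that reports on one transcript. Of the 32, 31 had a probe set named for them alone, out of 18193 gene symbols on the array, and Acat2 was not analysed here. All 31 passed the filter on low signal, as did 11546 genes in all, and 29 of the 31 had a mean signal of at least 500.

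The arrays were Affymetrix Mouse Genome 430 2.0, with 1 array in each of 4 groups: irradiated cells labelled Wip1-/-, unirradiated cells labelled Wip1-/-, irradiated Wip1+/+ cells and unirradiated Wip1+/+ cells. Irradiated cells were harvested 4 h after 5 Gy of gamma radiation, and the unirradiated ones carry a time of 0 h. A culture left unirradiated for 4 h is not among the arrays, so the radiation and the elapsed time cannot be told apart. Ppm1d encodes Wip1, a phosphatase that restrains p53 and the kinases signalling DNA damage. The labels give neither the passage nor the number of embryos nor how the Wip1 allele was made. With a single array a group there was no replicate check and no test, and a gene was counted if it differed at least 2-fold, or at least 1.5-fold as a second rule.

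Cells make cholesterol from acetyl-CoA through mevalonate, isoprenoids and squalene. When sterol in the endoplasmic reticulum runs low, Scap escorts the SREBP transcription factors to the Golgi, where proteases free their active part, and Insig proteins hold Scap back when sterol is plentiful. The freed SREBPs, often beside the CCAAT-binding factor NF-Y, switch on nearly all the enzymes described here. Fibroblasts depend on this pathway for the membrane of dividing cells, and p53 is known in other settings to act on SREBP processing and on the mevalonate genes.

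Promoter windows are printed for 3 genes whose enzymes the results turn on: Hmgcs1 and Mvk from the first part of the sterol path, and Fasn from fatty acid synthesis. RefSeq windows of build GRCm38.p6, from 250 bases before to 50 after a gene's start, were held for 25 of the 32 genes, in 33 windows. Hmgcs1 is at chr13:119690101-119690400 on the plus strand, Mvk at chr5:114444019-114444318 on the plus strand and Fasn at chr11:120824498-120824797 on the minus strand. Capitals mark the NF-Y box CCAAT or its reverse complement and, in Hmgcs1, the 1 SRE-type match TCACNCCAC.
Hmgcs1: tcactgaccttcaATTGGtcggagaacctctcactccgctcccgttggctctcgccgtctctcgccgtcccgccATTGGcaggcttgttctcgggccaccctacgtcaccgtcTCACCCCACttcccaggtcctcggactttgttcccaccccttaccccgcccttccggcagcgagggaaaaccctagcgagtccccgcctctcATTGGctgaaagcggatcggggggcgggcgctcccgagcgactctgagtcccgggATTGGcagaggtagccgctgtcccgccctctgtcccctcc
Mvk: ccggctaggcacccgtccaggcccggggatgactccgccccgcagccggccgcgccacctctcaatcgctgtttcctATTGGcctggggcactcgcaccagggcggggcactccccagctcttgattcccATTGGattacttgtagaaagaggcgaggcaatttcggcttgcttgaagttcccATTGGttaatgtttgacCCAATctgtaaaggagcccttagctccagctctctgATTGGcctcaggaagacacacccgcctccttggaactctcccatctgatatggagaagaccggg
Fasn: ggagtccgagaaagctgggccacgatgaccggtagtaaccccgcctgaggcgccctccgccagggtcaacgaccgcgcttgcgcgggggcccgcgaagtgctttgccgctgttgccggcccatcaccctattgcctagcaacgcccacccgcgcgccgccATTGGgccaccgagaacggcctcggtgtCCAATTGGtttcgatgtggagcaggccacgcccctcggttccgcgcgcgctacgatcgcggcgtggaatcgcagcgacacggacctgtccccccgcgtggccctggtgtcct
On either strand, CCAAT was held by 21 of the 33 windows (63.6%), against 37.5% of the 12009 windows of genes tested and 37.4% of all 32851 windows. TCACNCCAC was in 1 window (3.03%), against 1.14% of the windows of genes tested and 1.24% of all. The E-box CACGTG was in 7 windows (21.2%), against 9.88% of tested and 7.15% of all, and the p53 decamer, searched by its name, in 6 (18.2%), against 6.98% of tested and 8.36% of all. In Fasn 2 of the 3 copies of the box, on opposite strands, overlap. Windows of Scap overlap each other, as do windows of Dhcr7. The same E-box of Scap and the same p53 decamer of Dhcr7 are therefore each counted in 2 windows. These matches are descriptions of letters in the window and say nothing on binding.

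Before the results, 1 array and the genotype check need stating. The unirradiated array labelled Wip1-/- stood apart in 18 spiked hybridization controls. The spread (SD) of their log2 ratio was 0.44 to 0.47 in the 3 array pairs that include it and 0.07 to 0.10 in the other pairs. The brighter probe set of Ppm1d read 482 irradiated and 504 unirradiated on the arrays labelled Wip1-/-, against 364 irradiated and 375 unirradiated on the Wip1+/+ arrays. The other read 561 irradiated and 219 unirradiated on the arrays labelled Wip1-/-, against 463 irradiated and 317 unirradiated on the Wip1+/+ arrays. Signal of the targeted gene was therefore not lower on both arrays of that label. The labels do not say where its probes lie relative to the deleted part, so these signals do not check the genotype, and the samples are called by their label.

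Cell type markers were read beside these genes, and those of macrophages moved with the genotype labels. All 11 fibroblast markers were above the floor on every array, with a summed signal of 224594 irradiated and 304942 unirradiated in cells labelled Wip1-/-, against 199497 irradiated and 210262 unirradiated in Wip1+/+ cells. Of 12 macrophage markers 11 passed the filter and all 11 were lower in cells labelled Wip1-/- in both conditions. The summed signal of the list was 2243 irradiated and 2443 unirradiated in cells labelled Wip1-/-, against 9381 irradiated and 9407 unirradiated in Wip1+/+ cells, and Aif1 was at the floor on all 4 arrays. Macrophages also express Abca1, and the part of this difference in the genotype values was not tested. Of 10 adipocyte markers, 8 had a probe set and 5 passed the filter, and those with a probe set had a summed signal of 1252 irradiated and 1372 unirradiated in cells labelled Wip1-/-, against 1314 irradiated and 1266 unirradiated in Wip1+/+ cells. The 5 were split in both conditions. Fabp4, Retn and Pparg were higher in cells labelled Wip1-/-, with log2 ratios of 0.81, 0.27 and 0.43 in irradiated and 1.22, 0.74 and 1.15 in unirradiated cells. Lpl was lower, at -0.81 and -1.45, and Cd36 was at the floor on both arrays of that label and at least 5.2-fold lower in irradiated and 5.84-fold lower in unirradiated cells. Lep was at the floor on all 4 arrays and Adipoq and Cidec on 3 of 4 each. The 5 epithelial markers summed to 2076 irradiated and 2110 unirradiated in cells labelled Wip1-/-, against 1608 irradiated and 1505 unirradiated in Wip1+/+ cells, with Cdh1 at the floor on 2 arrays. In such bulk samples fewer cells of a type and less RNA per cell cannot be told apart.

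All 31 genes were well above the floor of 46.5, the signal under which values were not read, with member signals between 218 and 31259. The plot of signal by array shows most genes with their 4 values close together. The widest gaps belong to Abca1, Dhcr7, Stard4 and Scd1. Across the 3 array pairs that leave out the unirradiated array labelled Wip1-/-, the median size of the members' log2 ratio was 0.18 to 0.23, against 0.11 to 0.14 for all genes with a mean of at least 500. In the 3 pairs that include it the members' median was 0.24 to 0.27, against 0.33 to 0.36.

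**Figure D1:**
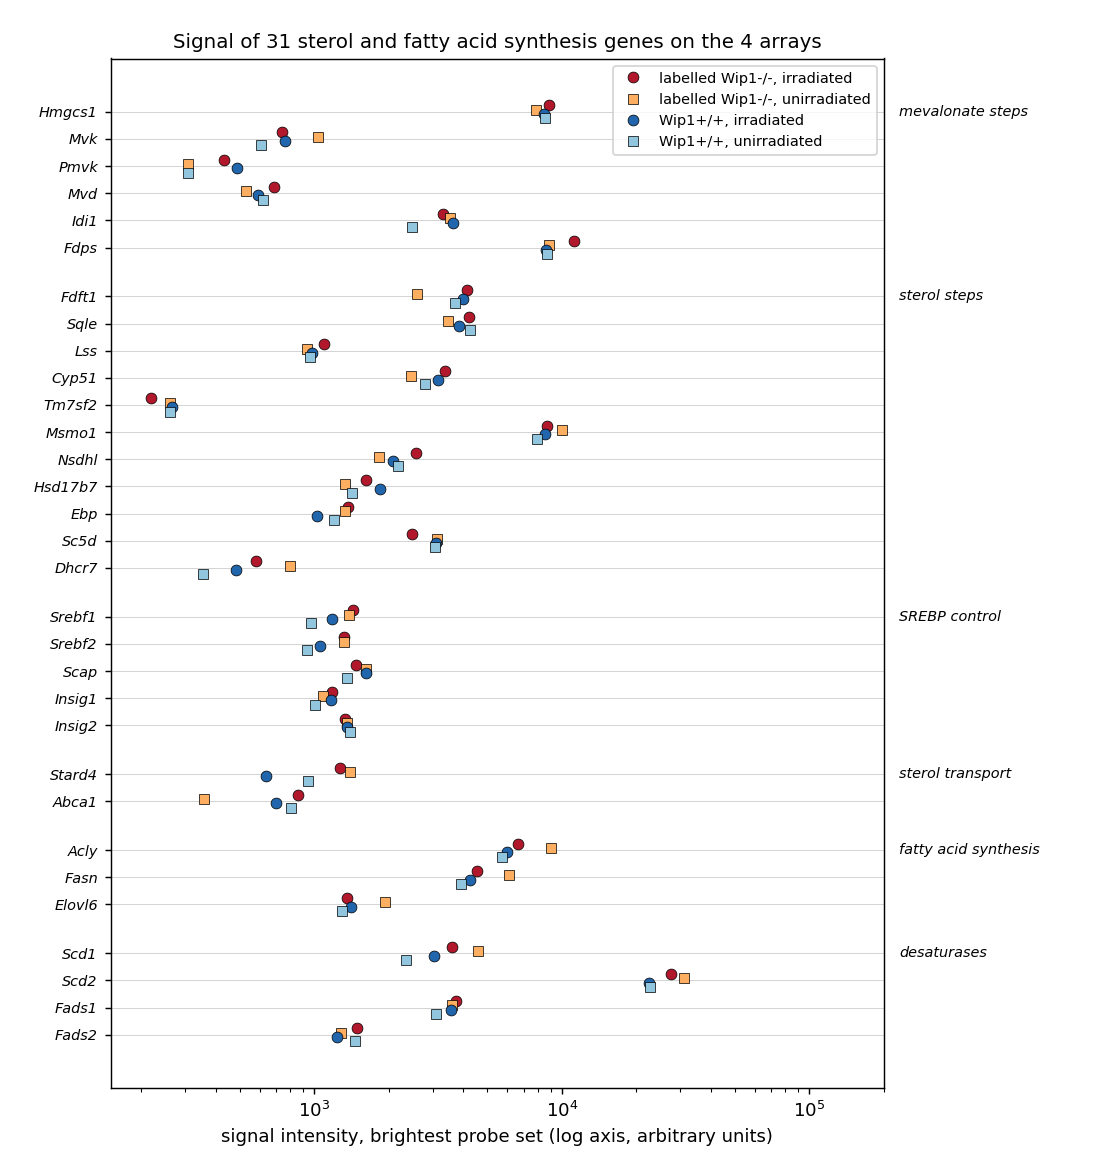
Signal intensity of the brightest probe set (x axis, log scale, arbitrary units) of each of 31 genes (rows, grouped by role) on the 4 arrays, 1 point an array, with points shifted slightly up or down within a row to keep them apart. Abca1 reads 359 on the unirradiated array labelled Wip1-/- and 700.2 to 857 on the others, while Insig2 lies between 1323 and 1397 on all 4. Levels are not compared between genes.

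Irradiation of cells labelled Wip1-/- went with a higher Abca1 signal, the pump that exports cholesterol, by 2.39-fold, and of Fdft1, squalene synthase, by 1.6-fold. Those were the 2 of 31 genes at least 1.5-fold apart, against 30.8% of all genes and 22.6% of genes with a mean of at least 500. Abca1 alone was at least 2-fold apart, against 10.3% of all genes and 4.3% of those brighter genes. Of the 31, 16 had a ratio above 1 and 15 below, against 47.4% of all genes above 1. Their median log2 ratio was 0.04, against -0.03 over all genes tested. The sign of the members' median turned under cyclic loess, to -0.01, and under scaling by the brighter probe sets, to -0.03. The only error these data give is the SD among probe sets that report on the same gene, here of the log2 ratio, which was 0.62 over all genes and 0.48 over the 19 members with several probe sets. It does not cover differences between cultures.

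After irradiation of Wip1+/+ cells, Pmvk, a kinase of the mevalonate path, was 1.57-fold higher, and no other member was 1.5-fold apart. Of the 31, 0 were at least 2-fold apart, against 3.07% of all genes, and 1 was at least 1.5-fold apart, against 10.7%. With 1 array a group no test or p-value was run. Ratios were above 1 for 20 genes and below for 11, against 52.3% of all genes above 1. The median log2 ratio was 0.11, against 0.01 over all genes tested. The SD between probe sets was 0.37 over all genes and 0.25 over members. Among all genes with a mean of at least 500, 0.0781% were at least 2-fold and 1.72% at least 1.5-fold apart in this pair.

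Between irradiated genotypes, Stard4, a cytosolic carrier of cholesterol, was 1.98-fold higher in cells labelled Wip1-/-. It was the 1 gene of 31 at least 1.5-fold apart, against 14.6% of all genes and 4.8% of those with a mean of at least 500. At least 2-fold apart were 0, against 5.29% of all genes and 1.31% of the brighter ones. Ratios were above 1 for 22 and below for 9, against 49.0% of all genes above 1. The median log2 ratio was 0.10, against -0.00 over all genes tested. The SD between probe sets was 0.41 over all genes and 0.32 over members.

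Between unirradiated genotypes, a pair that includes the array whose controls stood apart, Dhcr7, Scd1, Mvk, Acly and Fasn were 1.56- to 2.25-fold higher in cells labelled Wip1-/-, and Abca1 was 2.24-fold lower. These 6 were the genes at least 1.5-fold apart, against 32.9% of all genes and 25.8% of those with a mean of at least 500. Dhcr7 and Abca1 were the 2 at least 2-fold apart, against 12% of all genes and 5.78% of the brighter ones. Ratios were above 1 for 18, below for 12 and equal for Tm7sf2, against 53.5% of all genes above 1. The median log2 ratio was 0.10, against 0.05 over all genes tested. The SD between probe sets was 0.65 over all genes and 0.55 over members.

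**Figure D2:**
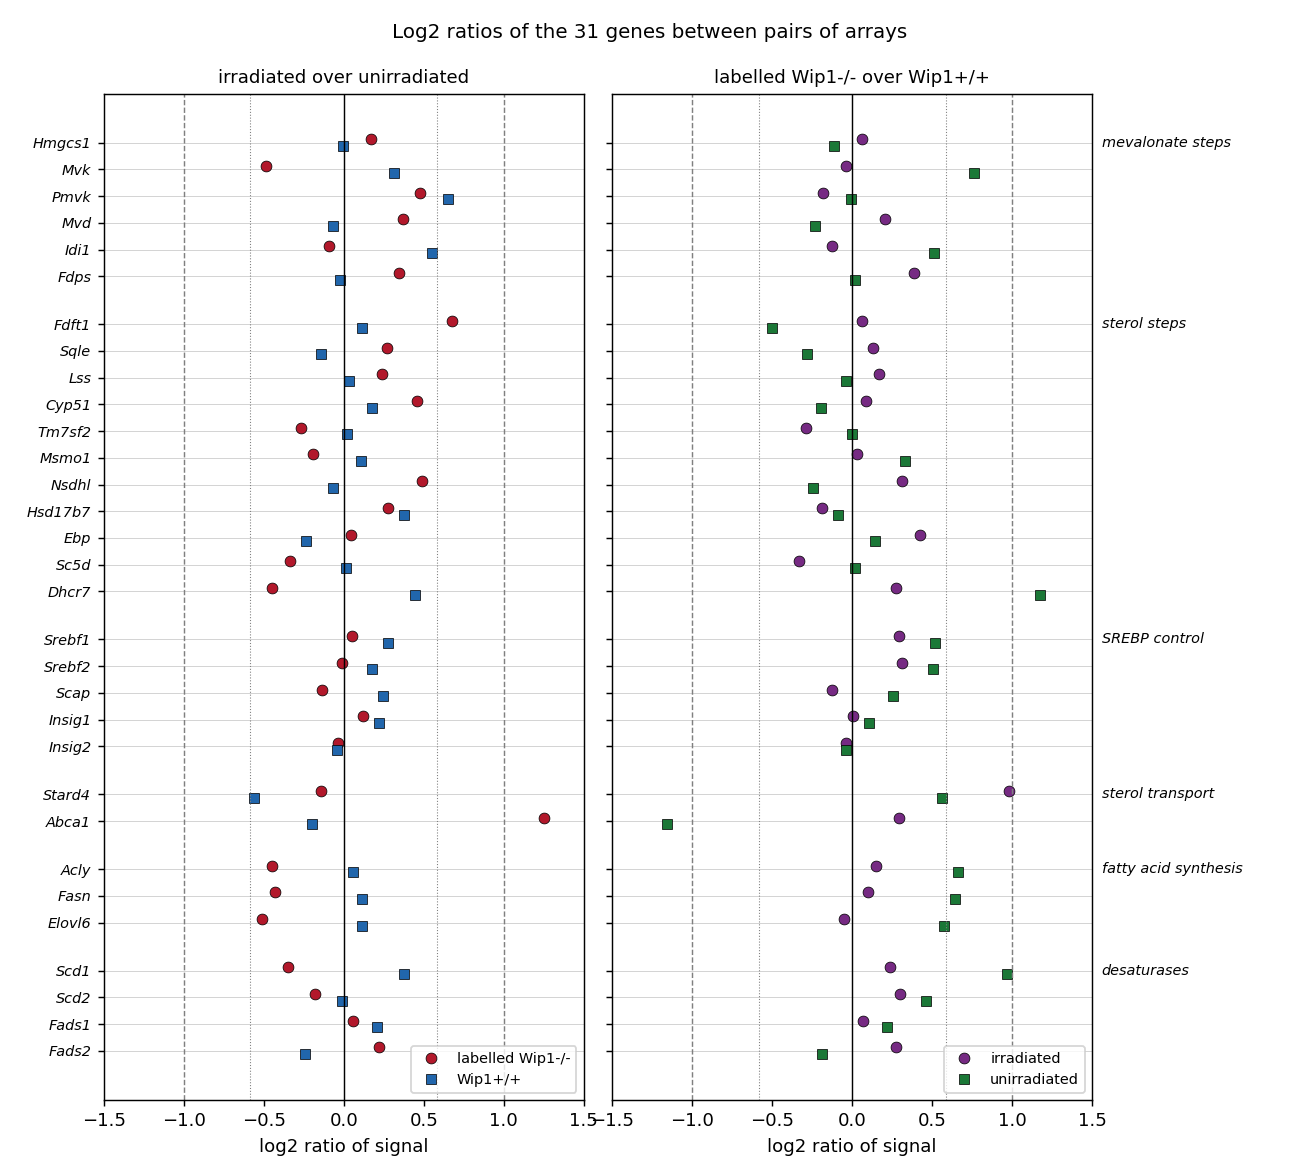
Log2 ratios of signal (x axes) of the 31 genes (rows, grouped by role): irradiated over unirradiated in each genotype on the left, and cells labelled Wip1-/- over Wip1+/+ cells in each condition on the right, 1 point a pair of arrays. Dashed lines mark 2-fold and dotted lines 1.5-fold. The Abca1 point for irradiation of cells labelled Wip1-/- is at 1.25, and 22 genes lie inside the dotted lines in all 4 comparisons.

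The mevalonate steps turn acetyl-CoA into isoprenoid units. Acat2, the acetoacetyl-CoA thiolase of its first reaction, has no value here. Pmvk, phosphomevalonate kinase, had the widest ratio of any member after irradiation of Wip1+/+ cells. It read 429 irradiated and 308 unirradiated in cells labelled Wip1-/-, against 487 irradiated and 309.6 unirradiated in Wip1+/+ cells. Both irradiated arrays lay above both unirradiated ones, and the ratio was 1.39-fold in cells labelled Wip1-/- and 1.57-fold in Wip1+/+ cells. It has 1 probe set, and it is one of the 2 members with a mean under 500, the other being Tm7sf2.

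Mvk, mevalonate kinase, read 739.7 irradiated and 1034 unirradiated in cells labelled Wip1-/-, against 759 irradiated and 609.8 unirradiated in Wip1+/+ cells. One array stood high, the unirradiated one labelled Wip1-/-, and the log2 irradiation ratio in that label was -0.48. The irradiated array of that label over the mean of the 2 Wip1+/+ arrays, a ratio between genotypes, gave a log2 value of 0.12. The second probe set of Mvk read 483 irradiated and 456 unirradiated in cells labelled Wip1-/-, against 564 irradiated and 446 unirradiated in Wip1+/+ cells. By that probe set the unirradiated genotype ratio was 1.02-fold, against 1.7-fold by the brightest. Both gave a ratio above 1 after irradiation of Wip1+/+ cells, at 1.27- and 1.24-fold.

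Hmgcs1, the HMG-CoA synthase that commits carbon to the pathway, differed by at most 1.12-fold in any of the 4 comparisons by its brightest probe set. Its other probe sets differed more, and the gene was singled out after these values were seen. The brightest read 8843 irradiated and 7872 unirradiated in cells labelled Wip1-/-, against 8482 irradiated and 8507 unirradiated in Wip1+/+ cells. The second read 8427 irradiated and 4468 unirradiated in cells labelled Wip1-/-, against 9666 irradiated and 10504 unirradiated in Wip1+/+ cells. The third read 6123 irradiated and 3192 unirradiated in cells labelled Wip1-/-, against 9489.7 irradiated and 10147 unirradiated in Wip1+/+ cells. In 3 of its 4 probe sets both arrays labelled Wip1-/- lay below both Wip1+/+ arrays, while the brightest overlapped. The fourth read 2434 irradiated and 1619 unirradiated in cells labelled Wip1-/-, against 3300 irradiated and 3846 unirradiated in Wip1+/+ cells. By those 3 the gene was 2.35- to 3.18-fold lower in unirradiated cells labelled Wip1-/-, and 1.15- to 1.55-fold lower in irradiated ones.

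The remaining mevalonate genes stayed under 1.5-fold in all 4 comparisons by their brightest probe sets. Idi1, the isomerase of isopentenyl diphosphate, was 1.46-fold higher after irradiation of Wip1+/+ cells, and its second probe set 1.21-fold higher. In unirradiated cells labelled Wip1-/- the same probe sets were 1.43- and 1.72-fold higher than in Wip1+/+ cells. Fdps, farnesyl diphosphate synthase, was widest between irradiated genotypes, 1.31-fold higher in cells labelled Wip1-/-. Mvd, the decarboxylase, was 1.29-fold higher after irradiation of cells labelled Wip1-/- by its brightest probe set and 1.03-fold lower by the other. Of the 6 measured mevalonate genes, 4 had a ratio above 1 after irradiation of cells labelled Wip1-/-, against 47.4% of all genes. After irradiation of Wip1+/+ cells 3 had, against 52.3% of all genes, a count that was 5 under quantile normalization and cyclic loess.

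The sterol steps lead from farnesyl units through squalene and lanosterol to cholesterol. Fdft1, the squalene synthase that commits carbon to sterols, read 4153 irradiated and 2602 unirradiated in cells labelled Wip1-/-, against 3986 irradiated and 3685 unirradiated in Wip1+/+ cells. The unirradiated array labelled Wip1-/- was the low one. A second probe set gave the same picture, at 3956 irradiated and 2662 unirradiated in cells labelled Wip1-/-, against 3427 irradiated and 3182 unirradiated in Wip1+/+ cells. Irradiated over unirradiated, the 2 probe sets were 1.6- and 1.49-fold higher in cells labelled Wip1-/- and both 1.08-fold higher in Wip1+/+ cells.

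Dhcr7, which makes cholesterol in the last reduction of one branch, read 582 irradiated and 796 unirradiated in cells labelled Wip1-/-, against 481 irradiated and 353 unirradiated in Wip1+/+ cells. Both arrays labelled Wip1-/- lay above both Wip1+/+ arrays, and the gap was 1.21-fold in irradiated and 2.25-fold in unirradiated cells. The irradiation ratios ran in opposite directions. Dhcr7 was 1.37-fold lower after irradiation of cells labelled Wip1-/- and 1.36-fold higher after irradiation of Wip1+/+ cells. Set against the mean of the 2 Wip1+/+ arrays, the irradiated array labelled Wip1-/- gave a log2 ratio of 0.50, so the direction turned. It has a single probe set.

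By their brightest probe sets the other 9 sterol enzymes differed by 1.18- to 1.40-fold at the widest. That was 1.18-fold for Lss, the lanosterol synthase, and 1.40-fold for Nsdhl, a decarboxylating dehydrogenase. Between irradiated genotypes Lss was 1.12-fold higher in cells labelled Wip1-/- by its brightest probe set and 1.42-fold lower by the second. Sqle, the squalene epoxidase, was 1.21-fold higher after irradiation of cells labelled Wip1-/- and 1.11-fold lower after irradiation of Wip1+/+ cells. Cyp51, the lanosterol demethylase, was 1.37- and 1.13-fold higher in the same comparisons. Hsd17b7, a sterol ketoreductase, was 1.21- and 1.3-fold higher by its brightest probe set, and the second was 1.62-fold lower after irradiation of cells labelled Wip1-/-. Tm7sf2, a sterol reductase, Msmo1, a methyl sterol oxidase, Ebp, a sterol isomerase, and Sc5d, a sterol desaturase, were within 1.34-fold in every comparison by their brightest probe sets. After irradiation 7 of 11 sterol enzymes had a ratio above 1 in cells labelled Wip1-/-, against 47.4% of all genes. In Wip1+/+ cells 8 of 11 did, against 52.3%. Their median log2 ratios were 0.24 and 0.03 and kept their sign under the 3 other scalings. By the median over probe sets they were 0.04 and 0.03, with 6 and 8 of 11 above 1. Between unirradiated genotypes 4 were above 1 and 6 below, against 53.5% of all genes above 1. Their median of -0.04 turned to 0.00 under cyclic loess and to 0.03 under scaling by the brighter probe sets. By the median over probe sets it turned to 0.11. The median over probe sets takes in every probe set of a gene, including those not above the floor on all arrays.

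None of the 5 SREBP control genes reached 1.5-fold by its brightest probe set. Srebf1, which encodes the SREBP that mainly drives fatty acid genes, read 1436 irradiated and 1383 unirradiated in cells labelled Wip1-/-, against 1174 irradiated and 967 unirradiated in Wip1+/+ cells. Srebf2, which encodes the SREBP that mainly drives sterol genes, read 1312 irradiated and 1323 unirradiated in cells labelled Wip1-/-, against 1056 irradiated and 934 unirradiated in Wip1+/+ cells. For both, the 2 arrays labelled Wip1-/- lay above the 2 Wip1+/+ arrays, with genotype ratios of 1.22- and 1.24-fold in irradiated cells and 1.43- and 1.42-fold in unirradiated cells. The second probe set of Srebf2 gave a like ratio in irradiated cells, at 1.18-fold, and was 1.37-fold lower in unirradiated cells labelled Wip1-/-. Srebf1 has 1 probe set.

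Scap, the escort that senses sterol, read 1472 irradiated and 1618 unirradiated in cells labelled Wip1-/-, against 1609 irradiated and 1357 unirradiated in Wip1+/+ cells. Insig1, the anchor that SREBP itself induces, read 1174 irradiated and 1078 unirradiated in cells labelled Wip1-/-, against 1169.9 irradiated and 1004 unirradiated in Wip1+/+ cells. Its paralog Insig2 read 1323 irradiated and 1359 unirradiated in cells labelled Wip1-/-, against 1359 irradiated and 1397 unirradiated in Wip1+/+ cells. The values of Scap and Insig1 overlapped between genotypes, those of Insig2 nearly touched, and the widest ratios were 1.19-fold for Scap, 1.16-fold for Insig1 and 1.03-fold for Insig2. The second probe set of Insig2 read 1357 irradiated and 1129.7 unirradiated in cells labelled Wip1-/-, against 1122 irradiated and 1046 unirradiated in Wip1+/+ cells, so both arrays labelled Wip1-/- were the higher ones. Another differed more, at 1.43-fold higher after irradiation of cells labelled Wip1-/- and 1.51-fold lower in unirradiated cells of that label than in Wip1+/+ cells. Signal on an array reports transcript and not the processed SREBP protein.

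The sterol transport genes included Abca1, which had the widest ratio of any member. Stard4, the carrier that brings cholesterol to the endoplasmic reticulum, read 1266 irradiated and 1396 unirradiated in cells labelled Wip1-/-, against 640.2 irradiated and 945 unirradiated in Wip1+/+ cells. Its second probe set read 966 irradiated and 741 unirradiated in cells labelled Wip1-/-, against 575 irradiated and 666 unirradiated in Wip1+/+ cells. The third read 678 irradiated and 1044 unirradiated in cells labelled Wip1-/-, against 487 irradiated and 622 unirradiated in Wip1+/+ cells. In each of the 3 probe sets both arrays labelled Wip1-/- lay above both Wip1+/+ arrays, by 1.39- to 1.98-fold in irradiated cells and 1.11- to 1.68-fold in unirradiated cells. After irradiation of Wip1+/+ cells they were 1.16- to 1.48-fold lower, and after irradiation of cells labelled Wip1-/- they disagreed, with log2 ratios of -0.14, 0.38 and -0.62.

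Abca1, which loads cholesterol onto apolipoproteins at the cell surface and is induced by the sterol sensor LXR, read 857 irradiated and 359 unirradiated in cells labelled Wip1-/-, against 700.2 irradiated and 803 unirradiated in Wip1+/+ cells. The unirradiated array labelled Wip1-/- was the low one, and the others lay between 700.2 and 857. The irradiation ratio in cells labelled Wip1-/- was 2.39-fold by this probe set, 1.24-fold by the second and 1.6-fold by the third. In Wip1+/+ cells the log2 ratios were -0.20, -0.79 and 0.22. Set against the mean of the 2 Wip1+/+ arrays in place of the array that stood apart, the irradiated array labelled Wip1-/- gave a log2 ratio of 0.19 for Abca1.

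**Figure D3:**
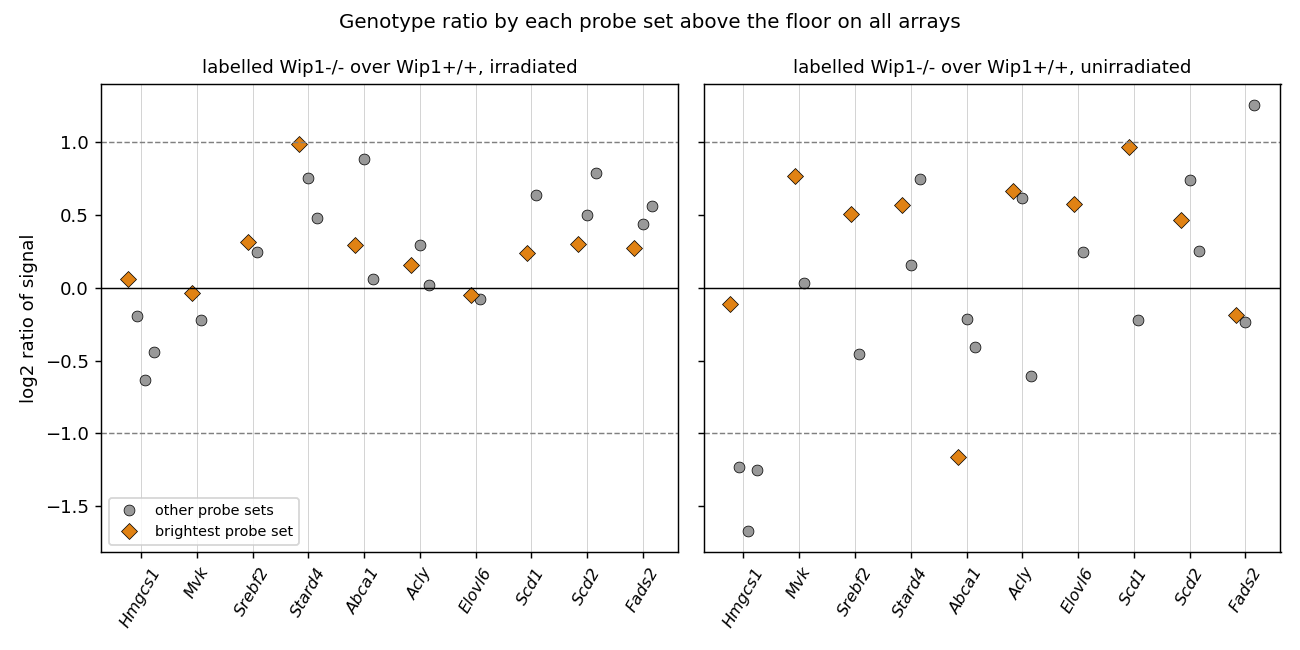
Log2 ratio of cells labelled Wip1-/- over Wip1+/+ cells (y axis) by each probe set above the floor on all arrays, for 10 genes, in irradiated cells on the left and unirradiated cells on the right. Diamonds are the brightest probe set and circles the others, and dashed lines mark 2-fold. All 3 probe sets of Stard4 and of Scd2 lie above 0 in both panels, while those of Acly, Scd1, Srebf2 and Fads2 lie on both sides of 0 on the right.

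Fatty acid synthesis genes shared 1 pattern over the arrays by their brightest probe sets, with the unirradiated array labelled Wip1-/- highest. Acly, the ATP citrate lyase that supplies cytosolic acetyl-CoA, read 6636 irradiated and 9060.5 unirradiated in cells labelled Wip1-/-, against 5974 irradiated and 5734 unirradiated in Wip1+/+ cells. Fasn, the fatty acid synthase, read 4550 irradiated and 6135 unirradiated in cells labelled Wip1-/-, against 4246 irradiated and 3926 unirradiated in Wip1+/+ cells. Elovl6, which lengthens palmitate, read 1357 irradiated and 1932 unirradiated in cells labelled Wip1-/-, against 1406 irradiated and 1298 unirradiated in Wip1+/+ cells. In unirradiated cells labelled Wip1-/- they were 1.58-, 1.56- and 1.49-fold higher than in Wip1+/+ cells. In irradiated cells the log2 genotype ratios of Acly, Fasn and Elovl6 were 0.15, 0.10 and -0.05. After irradiation they were 1.35- to 1.42-fold lower in cells labelled Wip1-/-, and 1.04- to 1.08-fold higher in Wip1+/+ cells. Of the 11 fibroblast markers, 7 were also higher and 4 lower in unirradiated cells labelled Wip1-/- than in Wip1+/+ cells. Their log2 ratios ran from -1.82 for Lum to 0.87 for Thy1, with a median of 0.55, and their part in the fatty acid values was not tested. The medians of the 3 kept their sign in these comparisons under quantile normalization, cyclic loess and scaling by the brighter probe sets. The direction in cells labelled Wip1-/- turned when the irradiated array was set against the mean of the 2 Wip1+/+ arrays, with log2 ratios of 0.18 for Acly and 0.16 for Fasn. The second probe set of Acly read 5247 irradiated and 6134 unirradiated in cells labelled Wip1-/-, against 4279 irradiated and 4007 unirradiated in Wip1+/+ cells, in the same order. The third did not share the pattern. It read 2168 irradiated and 1382 unirradiated in cells labelled Wip1-/-, against 2145 irradiated and 2105 unirradiated in Wip1+/+ cells, so the unirradiated array labelled Wip1-/- was its lowest. The second probe set of Elovl6 read 426.6 irradiated and 451.4 unirradiated in cells labelled Wip1-/-, against 449.8 irradiated and 381.4 unirradiated in Wip1+/+ cells. By it the unirradiated genotype ratio was 1.18-fold, and the log2 irradiation ratio in cells labelled Wip1-/- was -0.08. With the median of all probe sets taken for each gene, the 3 genes had a median log2 ratio of 0.31 between unirradiated genotypes, against 0.64 by the brightest. That choice also takes in floored probe sets. Acly has 6 probe sets, of which 3 are above the floor on all arrays.

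The desaturases put double bonds into fatty acids. Scd1, a stearoyl-CoA desaturase that makes oleate, read 3589 irradiated and 4580.5 unirradiated in cells labelled Wip1-/-, against 3043 irradiated and 2345 unirradiated in Wip1+/+ cells. The arrays did not overlap between genotypes. The log2 irradiation ratio in cells labelled Wip1-/- was -0.35. The irradiated array of that label over the mean of the 2 Wip1+/+ arrays, a ratio between genotypes, gave a log2 value of 0.43. The second probe set of Scd1 read 1052 irradiated and 659.5 unirradiated in cells labelled Wip1-/-, against 676 irradiated and 768 unirradiated in Wip1+/+ cells. There the irradiated array labelled Wip1-/- was highest and its unirradiated partner lowest. The genotype ratio was 1.18-fold in irradiated and 1.95-fold in unirradiated cells by the brighter probe set, and 1.56-fold by the other in irradiated cells. In unirradiated cells that other probe set was 1.16-fold lower in cells labelled Wip1-/-.

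Its paralog Scd2, a desaturase of the same reaction, has 3 probe sets above the floor. The brightest read 27613 irradiated and 31259 unirradiated in cells labelled Wip1-/-, against 22461 irradiated and 22656 unirradiated in Wip1+/+ cells. The second read 9578 irradiated and 13532 unirradiated in cells labelled Wip1-/-, against 6768 irradiated and 8105 unirradiated in Wip1+/+ cells. The third read 3679 irradiated and 3812 unirradiated in cells labelled Wip1-/-, against 2131 irradiated and 3199 unirradiated in Wip1+/+ cells. All 3 placed both arrays labelled Wip1-/- above both Wip1+/+ arrays, by 1.23- to 1.73-fold in irradiated cells and 1.19- to 1.67-fold in unirradiated cells. They were 1.01- to 1.5-fold lower after irradiation of Wip1+/+ cells and 1.04- to 1.41-fold lower after irradiation of cells labelled Wip1-/-.

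By their brightest probe sets the polyunsaturated desaturases differed less. Fads1, the delta-5 desaturase, read 3744 irradiated and 3598 unirradiated in cells labelled Wip1-/-, against 3576 irradiated and 3093 unirradiated in Wip1+/+ cells. Fads2, the delta-6 desaturase, read 1488 irradiated and 1277 unirradiated in cells labelled Wip1-/-, against 1232 irradiated and 1455 unirradiated in Wip1+/+ cells. Neither passed 1.5-fold in any comparison by its brightest probe set, with widest ratios of 1.16-fold and 1.21-fold. The second probe set of Fads1 read 158 irradiated and 103 unirradiated in cells labelled Wip1-/-, against 96.2 irradiated and 104 unirradiated in Wip1+/+ cells, with the irradiated array labelled Wip1-/- the high one. That probe set was 1.53-fold higher after irradiation of cells labelled Wip1-/-, and 1.64-fold higher in that label between irradiated genotypes. The second probe set of Fads2 was 1.64- and 1.35-fold higher in the same comparisons. The third probe set of Fads2, a dimmer one, was 2.38-fold higher in unirradiated cells labelled Wip1-/- than in Wip1+/+ cells, where the others were 1.14- and 1.18-fold lower.

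Read over the 2 x 2 layout, 12 of the 31 genes had both arrays labelled Wip1-/- above both Wip1+/+ arrays, against 20.9% of all genes and 21.4% of genes with a mean of at least 500. They were Stard4, Scd1, Scd2, Fads1, Acly, Fasn, Srebf1, Srebf2, Dhcr7, Fdps, Msmo1 and Ebp. Some of these gaps were narrow. For Fads1 the lower array labelled Wip1-/- read 3598 and the higher Wip1+/+ array 3576. For Fdps they read 8831 and 8720, and for Msmo1 8712 and 8521. For Stard4 and Scd2 each probe set above the floor gave this order, and for Acly 2 of 3 did. Srebf2, Scd1 and Fads1 had it in 1 of 2 probe sets, and the other 6 have 1 probe set above the floor. By brightest probe sets Insig2 was the 1 gene in the opposite order, against 18.7% of all genes and 18.9% of the brighter ones. Its ratios were at most 1.03-fold, and of its 3 probe sets 1 gave this order and 1 the reverse. Dimmer probe sets gave the opposite order in 3 of 4 for Hmgcs1 and 1 of 3 for Hsd17b7. Others placed both arrays labelled Wip1-/- higher, in 2 of 3 for Sc5d, 1 of 2 for Idi1 and 1 of 3 for Fads2. Without the unirradiated array labelled Wip1-/-, 21 of the 31 genes had the irradiated array of that label above both Wip1+/+ arrays, against 36.2% of all genes.

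For irradiation, 6 of 31 genes (19.4%) had both irradiated arrays above both unirradiated arrays. The share was 16.7% over all genes and 16.6% over those with a mean of at least 500. The reverse held for 0, against 16.3% of all genes and 16% of the brighter ones. The 6 were Pmvk, Fdft1, Lss, Cyp51, Hsd17b7 and Insig1, with log2 ratios from 0.12 to 0.67 in cells labelled Wip1-/- and from 0.03 to 0.65 in Wip1+/+ cells. By brightest probe sets, all of the 6 but Insig1 are enzymes of the mevalonate and sterol steps, which hold 6 and 11 of the 31 genes. Both probe sets of Fdft1 gave this order, as did 2 of 3 for Cyp51, whose other one gave the reverse, 1 of 2 for Lss and 1 of 3 for Hsd17b7. Pmvk and Insig1 have 1 probe set above the floor. Dimmer probe sets of genes outside the 6 also gave this order, in 1 of 2 for Mvk and 1 of 3 each for Abca1, Acly and Fads2. Without the unirradiated array labelled Wip1-/-, 18 genes had both irradiated arrays above the unirradiated Wip1+/+ array, against 34.4% of all genes.

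The irradiation ratios of the genotypes come from separate arrays. Of 31 genes, 11 had the same sign in both, or 35.5%, against 6124 of all 11546 genes and 53.3% of genes with a mean of at least 500. Pearson r across the 31 genes was -0.19 and Spearman rho -0.24, against 0.09 and 0.10 over all genes. These describe genes on shared arrays and are no test. The difference between the ratios, that of cells labelled Wip1-/- minus that of Wip1+/+ cells, had a median of -0.15 over the 31 genes, against -0.04 over all genes. One gene, Abca1, differed at least 2-fold in this way, against 12.8% of all genes and 4.95% of those with a mean of at least 500, with a log2 difference of 1.45. At least 1.5-fold apart were 6 genes, against 33.4% of all genes and 23.9% of the brighter ones. Beside Abca1 they were Dhcr7 at -0.90, Mvk at -0.80, Scd1 at -0.73, Idi1 at -0.64 and Elovl6 at -0.63. For Dhcr7, Mvk, Scd1 and Elovl6 the unirradiated array labelled Wip1-/- was the highest of the 4 and for Abca1 the lowest, while for Idi1 the unirradiated Wip1+/+ array was the low one. The second probe set of Scd1 gave a difference of 0.86.

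**Figure D4:**
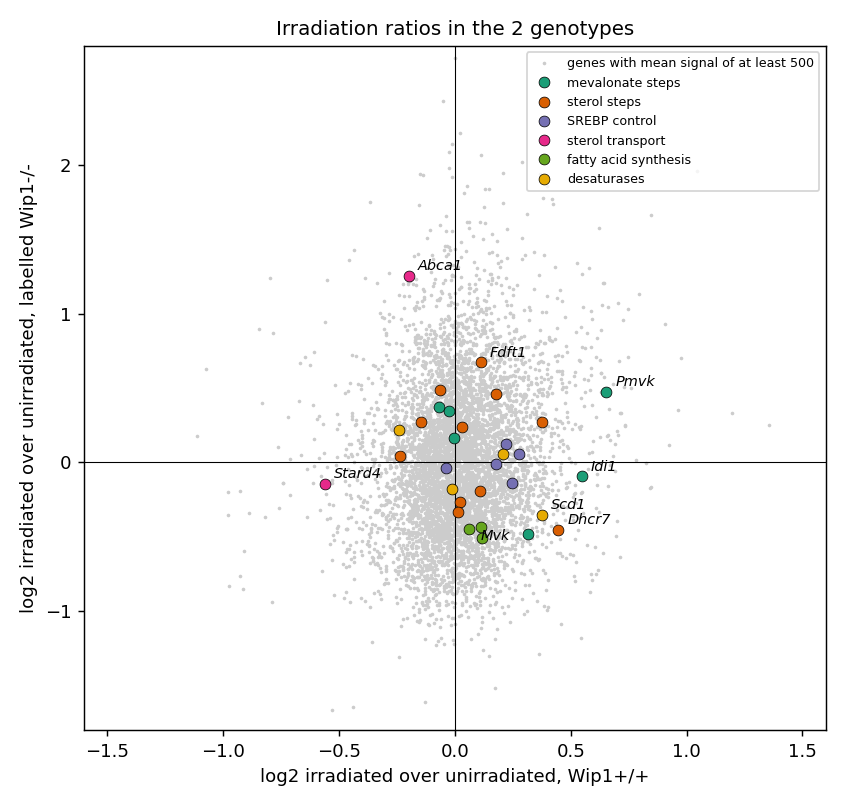
Log2 irradiation ratio in cells labelled Wip1-/- (y axis) against that in Wip1+/+ cells (x axis), 1 coloured point a gene by role, over grey points for all genes with a mean signal of at least 500. Abca1 lies at 1.25 on the y axis and -0.20 on the x axis, while Dhcr7, Mvk and Scd1 lie at the lower right with opposite signs.

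The genotype ratios in irradiated and in unirradiated cells also come from separate arrays. Of the 31 genes, 16 had the same sign in both, 13 above 1 and 3 below, or 51.6%, against 56.0% of all genes. Across the 31 genes Pearson r was 0.11 and Spearman rho 0.07, against 0.32 and 0.21 over all genes.

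Probe sets of one gene often disagreed. Among the 19 members with several probe sets above the floor, all had the same sign in 7 after irradiation of cells labelled Wip1-/-, in 10 after irradiation of Wip1+/+ cells, in 12 between irradiated genotypes and in 9 between unirradiated genotypes.

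Neighbouring lipid genes were read from a further list of 44, of which 37 passed the filter. In unirradiated cells 3 were at least 2-fold apart between genotypes, against 12% of all genes. Mylip, the ubiquitin ligase that degrades lipoprotein receptors, read 651 irradiated and 1011 unirradiated in cells labelled Wip1-/-, against 718 irradiated and 438 unirradiated in Wip1+/+ cells. Mid1ip1, an activator of acetyl-CoA carboxylase, read 2730.4 irradiated and 1172 unirradiated in cells labelled Wip1-/-, against 2608 irradiated and 2979.7 unirradiated in Wip1+/+ cells. Its low value was on the unirradiated array labelled Wip1-/- alone. Ggps1, which makes geranylgeranyl diphosphate for protein prenylation, read 685 irradiated and 474 unirradiated in cells labelled Wip1-/-, against 1339 irradiated and 970.2 unirradiated in Wip1+/+ cells. Its other 3 probe sets had log2 genotype ratios of -0.86, -0.47 and -0.20 in unirradiated cells, and of 0.02 to 0.17 in irradiated cells, where the brightest had -0.97.

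After irradiation, Mid1ip1 was the 1 of 37 at least 2-fold apart in cells labelled Wip1-/-, against 10.3% of all genes. In Wip1+/+ cells 0 were, against 3.07%, and between irradiated genotypes 0 were, against 5.29%. The medians of the 37 were -0.01 after irradiation of cells labelled Wip1-/- and 0.03 after that of Wip1+/+ cells. Between genotypes they were -0.01 in irradiated and 0.08 in unirradiated cells. At least 1.5-fold apart after irradiation of Wip1+/+ cells, all higher, were 3 genes, against 10.7% of all genes. They were Mylip, Lpin1, a phosphatidate phosphatase, and Acss2, an acetyl-CoA synthetase, with log2 ratios of 0.71, 0.63 and 0.59. In cells labelled Wip1-/- they had -0.63, 0.69 and 0.30. The second probe set of Lpin1 had 0.47 in Wip1+/+ cells and -0.34 in cells labelled Wip1-/-, and that of Acss2 had -0.17 and -0.11.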

How the data were processed

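The deposited table holds 1 signal intensity, linear and never negative, for each probe set on each array. The authors' software was GCOS, per the submitters' processing notes, while its version, background correction and target are not given there. Each deposited column had a mean of 500 after 2% was trimmed at each end, so the values were used without further scaling. Signal over background limits what is detectable, and precision is limited by the number of arrays.

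From these intensities, 34945 of 45101 probe sets had 1 symbol in the platform's annotation and were used. Values under 46.5, the 40th percentile, were set to that floor before log2. Each gene took its brightest probe set and entered if its mean was at least 67.95, the median over probe sets. Log2 ratios were taken over the whole table. Members and lists were chosen with earlier results of these data known. Signal is given for members at least 1.5-fold apart in any comparison, the SREBP control genes and paralog pairs; signals of others were picked after their values were seen. Marker lists held fibroblast, macrophage, adipocyte and epithelial genes. Alternatives were 3 scalings, 2 floors, 2 filters, 2 choices of probe set and a comparison without the array that stood apart. Of the choices of probe set, the median over probe sets included those under the floor. The steps were tested on simulated data. R 4.3.3 with limma 3.58.1 and Python 3.11.15 were used.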

Additional observations from a re-analysis of the deposited data

Results flagged for a closer look

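By its brightest probe set the irradiation ratio of Abca1 ran in opposite directions in the genotypes. The log2 difference was 1.45, that of cells labelled Wip1-/- minus that of Wip1+/+ cells. With 1 array a group this difference was not tested. Its other probe sets gave 1.10 and 0.46. By the third the signal rose in both, with log2 irradiation ratios of 0.68 in cells labelled Wip1-/- and 0.22 in Wip1+/+ cells. The difference includes the unirradiated array labelled Wip1-/-, whose controls stood apart. Over the mean of both Wip1+/+ arrays, a ratio between genotypes, the irradiated array labelled Wip1-/- gave 0.19 by the brightest probe set.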

How the results depend on the processing

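With 1 array a group no replicate could be left out. No paired analysis was possible because each group held 1 array, which left no replicate numbers to pair, and a fit with genotype as a block, taking the genotypes as replicates of irradiation, was not run. Of the values recomputed for the whole list, 148 stayed within 1.5 times the count or within the SD between probe sets, and 8 did not. For medians this rule decides little. The SD between probe sets of a gene was wider than the list medians themselves, so a median that changed sign still counted as staying. After irradiation of cells labelled Wip1-/-, 0 members were at least 2-fold apart by the median over probe sets. With both Wip1+/+ arrays as the base of the irradiated array of that label, 0 were 2-fold and 1 was 1.5-fold apart. That base compares genotypes and does not measure irradiation. By the median over probe sets 0 also differed 2-fold between the irradiation ratios, and the Scd1 difference turned to 0.064. The members' median turned to -0.04 after irradiation of cells labelled Wip1-/- without probe sets ending in _x_at or _s_at, and to 0.04 for the difference between irradiation ratios by the median over probe sets. After irradiation of Wip1+/+ cells 0 were 1.5-fold apart at a filter of 500, which leaves out Pmvk. Between irradiated genotypes 1 was 2-fold apart under quantile normalization. An alternative chosen after seeing the data left out the unirradiated array labelled Wip1-/-. There 21 genes in place of 12 were higher in that label and 18 in place of 6 were higher after irradiation. That rule orders fewer arrays, and its counts also rose over all genes. The cause of these and the other shifts was not tested.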
